A study of Homo sapiens with 11 samples.

Results

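The AP-1, EGR1 and MYC immediate early factors are 10 transcription factor genes, FOS, FOSB, FOSL1, FOSL2, JUN, JUNB, JUND, ATF3, EGR1 and MYC, taken by symbol from a table of 28152 gene symbols. All 10 were in the table and all 10 passed the filter on low counts, among 16653 symbols that did. Their RNA was measured by RNA sequencing of human tumours labelled BT-474, a breast cancer line described by the labels as hormone receptor and HER2 positive, grown in the mammary fat pad of female athymic nude mice. Estradiol came from an implanted pellet (0.72 mg, lasting 90 days) in all animals, controls included, and a tumour had to exceed 95 cubic millimetres to be enrolled. The vehicle group (6 libraries) received mannitol in water under the skin every 4 days, and the evexomostat group (5 libraries) received evexomostat, an inhibitor of methionine aminopeptidase 2, at 12 mpk in the same solution on the same schedule. The label gives day 33 for all 11 libraries, so a single dose and a single time were available. Athymic mice lack mature T cells, and blood vessels, fibroblasts and other stroma of such tumours come from the mouse. The comparison asked whether the factors differed between tumours of evexomostat and vehicle animals.

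Immediate early genes are switched on within minutes of a growth or stress signal, without new protein synthesis, and their RNAs are short-lived. FOS and JUN family proteins pair through a leucine zipper to form AP-1, which binds DNA and changes transcription of genes for proliferation, invasion and inflammation. EGR1 is a zinc finger factor induced through the ERK pathway, ATF3 is a stress-induced relative of AP-1, and MYC drives genes of ribosome production, metabolism and cell growth. In breast cancer cells these factors are known to respond to estrogen and to HER2 and EGFR signalling.

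Promoters of 8 of the 10 genes matched the RefSeq table (build GRCh38.p14), which has no entry used here for FOSL1 and MYC. The 250 bases before the start of FOS, FOSB, JUNB and EGR1 are shown because these 4 factors had the lowest evexomostat to vehicle ratios of the 10. Capitals mark TGACG, the core of a cyclic AMP response element. They also mark the TATA box, written TATAAA, and the CArG box, which serum response factor binds.
FOS, chr14:75278578-75278827, plus strand: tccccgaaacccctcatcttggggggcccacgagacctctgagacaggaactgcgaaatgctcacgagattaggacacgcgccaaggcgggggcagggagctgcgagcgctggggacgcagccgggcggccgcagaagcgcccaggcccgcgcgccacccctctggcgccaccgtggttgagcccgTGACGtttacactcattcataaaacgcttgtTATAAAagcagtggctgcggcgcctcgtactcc
FOSB, chr19:45467746-45467995, plus strand: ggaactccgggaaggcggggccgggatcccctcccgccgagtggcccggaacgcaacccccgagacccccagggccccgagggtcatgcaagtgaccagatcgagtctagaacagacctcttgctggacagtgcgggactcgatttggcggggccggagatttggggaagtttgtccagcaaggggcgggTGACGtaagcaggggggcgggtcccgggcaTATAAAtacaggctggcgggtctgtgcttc
JUNB, chr19:12791236-12791485, plus strand: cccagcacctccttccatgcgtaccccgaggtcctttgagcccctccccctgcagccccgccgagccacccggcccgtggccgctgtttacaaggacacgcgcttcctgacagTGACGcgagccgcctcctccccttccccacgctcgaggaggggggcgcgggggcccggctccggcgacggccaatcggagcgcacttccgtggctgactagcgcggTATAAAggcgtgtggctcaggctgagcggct
EGR1, chr5:138465229-138465478, plus strand: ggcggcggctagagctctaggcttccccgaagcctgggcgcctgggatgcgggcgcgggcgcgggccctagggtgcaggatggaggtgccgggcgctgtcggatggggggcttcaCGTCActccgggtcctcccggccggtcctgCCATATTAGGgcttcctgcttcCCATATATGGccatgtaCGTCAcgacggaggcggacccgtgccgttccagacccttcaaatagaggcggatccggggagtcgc
FOS, FOSB and JUNB each had 1 TGACG and 1 TATAAA, with TATAAA at 33 to 28, 30 to 25 and 31 to 26 bases before the start. EGR1 had no TATAAA in this window, and had 2 CArG boxes, CCATATTAGG at 105 to 96 and CCATATATGG at 83 to 74 bases before the start, and 2 TGACG on the other strand, written CGTCA. Among all 35116 promoter windows of this length, searched on both strands, TGACG was in 21.2%, TATAAA in 10.7% and the CArG box in 1.16%. TGACG was in 7 of the 8 matched genes, TATAAA in 4 (ATF3, FOS, FOSB and JUNB) and the CArG box in 1. The TATAAA of ATF3 lay further out, at 230 to 225 bases before the start, in 1 of the 2 windows of that gene. The percentages are per window, and the 8 genes had 9 windows. The full element TGACGTCA, which contains TGACG, was in JUND alone of the 8 and in 1.65% of windows, and GCGNGGGCG, the sequence bound by EGR proteins, was in EGR1 alone and in 8.41%. TGANTCA, the AP-1 site, and CACGTG, bound by MYC, were in 6.57% and 6.34% of windows and in none of the 8. Bases outside these windows were not searched, so a motif missing here may lie further from the start. A match describes the letters only, and binding was not measured here.

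None of the 10 factors passed an adjusted p-value of 0.05 in edgeR's quasi-likelihood test, in which 101 of 16653 genes (0.606%) did, 29 higher (0.174%) and 72 lower (0.432%) under evexomostat, or 28 and 42 with upper quartile scaling. With limma-trend on RPM the balance turned, to 43 higher and 31 lower with a pseudocount of 1 and to 38 and 30 with 0.1. At an unadjusted p under 0.05 there were 5 of the 10, FOS, FOSB, JUNB and ATF3 with a lower and MYC with a higher estimate under evexomostat, against 13.4% of all tested genes, 4.82% higher and 8.55% lower. DESeq2, limma-voom and limma-voom with quality weights also called 0 of the 10 (3.9%, 0.534% and 6.36% of all tested genes), and each had the same 5 at an unadjusted p under 0.05, beside 15.3%, 12.8% and 24.7% of all tested genes. With limma-trend on RPM only JUNB and MYC were under 0.05 before adjustment, at either pseudocount, beside 13.3% and 13.2% of tested genes. Without vehicle replicate 001 edgeR called 0 of the 10 and 5.22% of tested genes, with 4 of the 10 (FOS, FOSB, JUNB and MYC) and 24.4% of tested genes at an unadjusted p under 0.05. Of the 10 estimates 6 were lower and 4 higher under evexomostat, with a median log2 fold change of -0.21, beside -0.04 over all tested genes. The 2 groups overlapped in CPM in each of the 10 factors, while they did not overlap in 2.97% of tested genes, 1.64% lower and 1.33% higher. The members were picked with earlier results of these data known, so these counts describe the list and test nothing about it.

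Total counts per library ranged from 22808033 to 39249329. The top 100 genes took 23.9% of the counts of vehicle replicate 001, beside 16.2% to 17.9% elsewhere, and this library held the lowest level of the 11 for FOSL1, FOSL2, JUN and MYC and the highest for JUNB, so each estimate is given with and without it. The 10 markers of the labelled line summed to 337.7 to 755.9 RPM under vehicle and 477.4 to 650.3 under evexomostat, mostly from the keratins KRT8 (mean 331.6 RPM) and KRT18 (148.6). The estrogen and progesterone receptor genes ESR1 and PGR averaged 0.285 and 0.0655 RPM, against the hormone receptor label. The other markers of the line were also low, with CDH1 at 0.456, KRT19 at 0.803, EPCAM at 3.03, GATA3 at 6.50 and FOXA1 at 1.05 RPM. Whether the tumours are of the labelled line was not tested. ERBB2, the HER2 gene, averaged 53.7 RPM, below both keratins, and whether that level goes with the HER2 label was not tested. The 3 mesenchymal genes summed to 1885 to 3753 RPM under vehicle and 1974 to 2613 under evexomostat, with log2 fold changes of 0.32 for VIM, -0.55 for CD44 and -2.18 for FN1. None of the 3 passed in edgeR (adjusted p 0.473, 0.383 and 0.0503), though FN1 did not overlap between the groups. The summed level of 12 skeletal muscle genes was 3.72 to 21.8 RPM under vehicle and 5.11 to 536.1 RPM under evexomostat, highest in evexomostat replicate 005. All 7 of its tested genes were higher under evexomostat at an unadjusted p under 0.05, with a median log2 fold change of 3.48, and none passed after adjustment in edgeR. The groups overlapped in all 7, and the evexomostat libraries differed widely. ACTA1 ran from 0.590 to 139.6 CPM and MYH1 from 0.310 to 99.2 under evexomostat, with vehicle libraries reaching 5.96 and 8.78. The summed level of 6 fibroblast genes was 390.8 to 2063 RPM under vehicle and 499.2 to 1122 under evexomostat, that of 5 endothelial genes 8.92 to 23.2 and 10.04 to 14.8, of 5 leukocyte genes 41.6 to 94.3 and 62.9 to 75.4, and of 5 adipocyte genes 0.345 to 1.90 and 0.315 to 2.86, with ADIPOQ at 0 in every library. The part of other cells in the levels below was not tested, and in whole tumours fewer cells of a type and less RNA per cell cannot be told apart. Nothing in the labels says that the libraries of a group came from separate animals, so the tests measure the spread between these libraries.

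**Figure D1:**
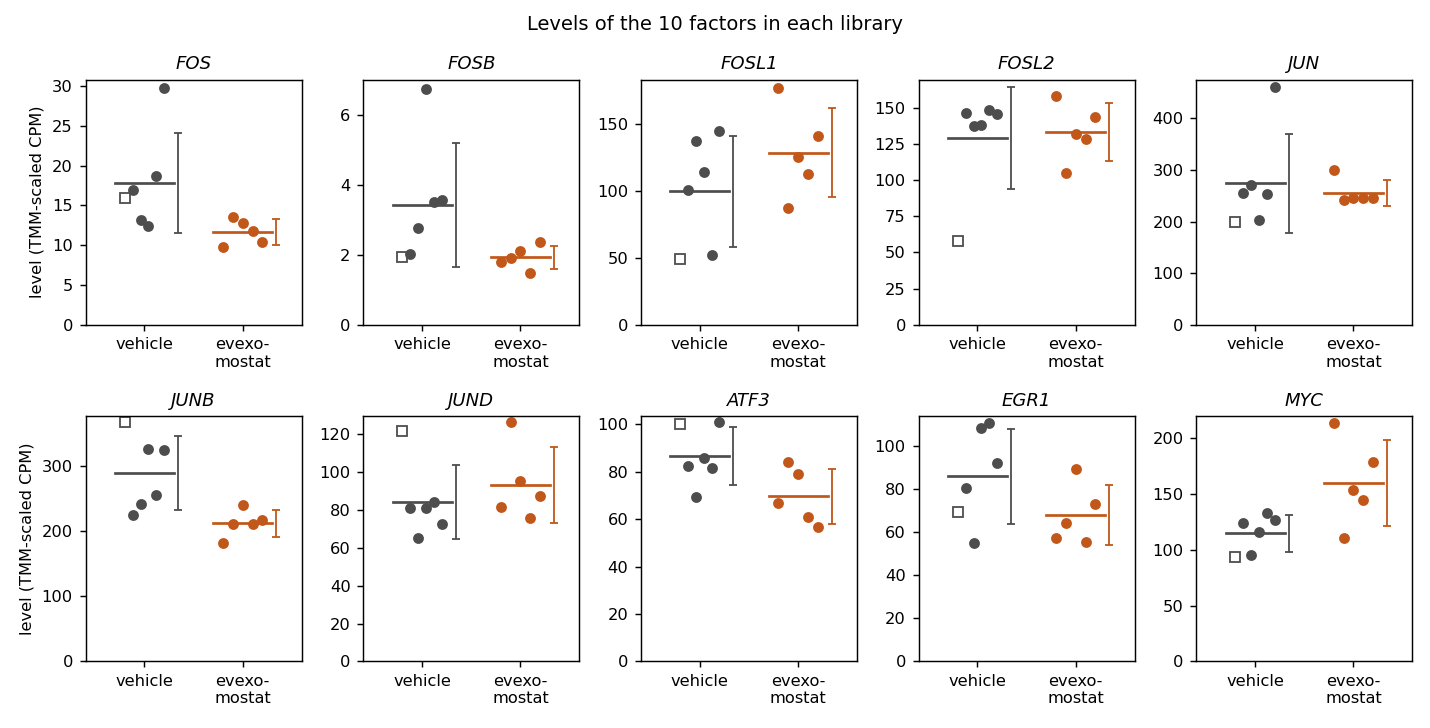
Level of each factor (vertical axes, TMM-scaled CPM, each from 0) in the 6 vehicle and 5 evexomostat libraries. Points are libraries, the open square is vehicle replicate 001, horizontal lines are group means and bars beside them are 1 SD. The groups overlap in every panel, and 4 of the 5 evexomostat libraries lie above all vehicle libraries for MYC and 4 of 5 below all of them for JUNB.

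FOS, the founding AP-1 subunit, which has to pair with a JUN protein to bind DNA, was at 12.5 CPM in its lowest vehicle library, at a median of 16.5 and at 29.8 in its highest. Under evexomostat it was at 9.71, 13.6, 12.8, 11.8 and 10.4 CPM in replicates 002, 003, 004, 005 and 007. All 5 evexomostat libraries lay below the vehicle median, 3 of them below every vehicle library, and the highest vehicle value came from replicate 007 alone. The means were 17.8 ± 6.31 CPM (SD, n = 6) and 11.7 ± 1.61 (SD, n = 5). The log2 fold change was -0.61 (SE 0.22, 95% interval -1.08 to -0.14, edgeR adjusted p 0.237). It was -0.63 without vehicle replicate 001 (edgeR adjusted p 0.109) and -0.41 without vehicle replicate 007 (edgeR adjusted p 0.346).

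FOSB, a close paralog of FOS, was the scarcest of the 10, with 40 to 251 counts per library. It was at 1.94 CPM in the lowest, 3.15 in the median and 6.76 in the highest vehicle library, and at 1.80, 1.90, 2.10, 1.49 and 2.36 CPM in evexomostat replicates 002, 003, 004, 005 and 007. Evexomostat libraries were all below the vehicle median, and the highest vehicle value was in replicate 005. Its log2 fold change of -0.83 was the most negative of the 10 (SE 0.32, 95% interval -1.51 to -0.15, edgeR adjusted p 0.267). This estimate was -0.94 without vehicle replicate 001 (edgeR adjusted p 0.0814) and -0.52 without vehicle replicate 005 (edgeR adjusted p 0.406). Without evexomostat replicate 005, which had the lowest FOSB and the most muscle RNA, it was -0.75.

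FOSL1 and FOSL2 encode FRA-1 and FRA-2, FOS relatives without its strong activating domain that are often abundant in invasive carcinoma cells. FOSL1 ranged from 48.9 to 144.2 CPM under vehicle with a median of 106.9, and was at 176.3, 87.2, 125.0, 112.1 and 140.9 CPM in evexomostat replicates 002, 003, 004, 005 and 007. Its low vehicle values were in replicates 001 and 006, at 48.9 and 51.8 CPM, below all evexomostat libraries, and the other 4 vehicle libraries lay within the evexomostat range. The log2 fold change was 0.37 with a wide interval (SE 0.29, 95% interval -0.25 to 0.99, edgeR adjusted p 0.646), and 0.23 without vehicle replicate 001. Its direction turned, to -0.10, in the 8 libraries whose numbers occur in both groups. Those 8 leave out vehicle replicates 001 and 006, where FOSL1 was lowest, and evexomostat replicate 002, where it was highest.

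FOSL2 was at 57.6 CPM in vehicle replicate 001 and at 137.4 to 148.1 CPM in the other 5 vehicle libraries, with a vehicle median of 141.8. Under evexomostat it was at 158.4, 104.5, 131.8, 128.1 and 143.3 CPM in replicates 002, 003, 004, 005 and 007, on both sides of the vehicle median. Its log2 fold change was 0.05 (SE 0.21, 95% interval -0.41 to 0.51, edgeR adjusted p 0.957). Its sign was not stable, with -0.10 without vehicle replicate 001 (edgeR adjusted p 0.609), -0.02 without evexomostat replicate 002, and a reversal in 5 of 22 alternatives.

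JUN, the subunit that can pair with itself as well as with FOS proteins, was at 199.9 CPM in the lowest, 254.6 in the median and 460.8 in the highest vehicle library, which was replicate 007, as for FOS. Under evexomostat it was at 300.3, 241.1, 245.7, 246.3 and 245.5 CPM in replicates 002, 003, 004, 005 and 007, so 4 libraries sat close together and replicate 002 lay above them, all 5 within the vehicle range. The log2 fold change was -0.10 (SE 0.20, 95% interval -0.53 to 0.34, edgeR adjusted p 0.892). It was -0.17 without vehicle replicate 001 and 0.11 without vehicle replicate 007.

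JUNB, which is often induced with FOS and activates many AP-1 sites more weakly than JUN, was at 224.2 CPM in the lowest, 289.0 in the median and 366.3 in the highest vehicle library. In evexomostat replicates 002, 003, 004, 005 and 007 it was at 182.0, 211.0, 239.8, 210.1 and 216.6 CPM, 4 of them below all vehicle libraries and 1, replicate 004, above vehicle replicate 003 alone. The means were 289.4 ± 56.8 CPM (SD, n = 6) and 211.9 ± 20.6 (SD, n = 5). JUNB had the smallest p-value of the 10, at a log2 fold change of -0.45 (SE 0.15, 95% interval -0.78 to -0.12, edgeR adjusted p 0.211), and ranked 828 of 16653 genes by p-value. The estimate was -0.37 without vehicle replicate 001 (edgeR adjusted p 0.103) and -0.61 after correction for transcript length and GC content (edgeR adjusted p 0.0781).

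JUND, the JUN paralog that is present in resting cells and less inducible, was at 65.4 CPM in the lowest, 81.0 in the median and 122.0 in the highest vehicle library, replicate 001. Under evexomostat the levels were 81.5, 126.3, 95.3, 75.5 and 87.3 CPM in replicates 002, 003, 004, 005 and 007, the highest value of each group standing apart from the next, 84.1 under vehicle and 95.3 under evexomostat. Its log2 fold change was 0.14 (SE 0.18, 95% interval -0.24 to 0.52, edgeR adjusted p 0.794), 0.28 without vehicle replicate 001 (edgeR adjusted p 0.225) and 0.01 without evexomostat replicate 003. JUND has the most GC-rich transcript of the 10 (69.7% GC), and its sign depended on the correction for length and GC content, with -0.08 after it.

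ATF3, induced by amino acid shortage, DNA damage and other stress, was at 69.2 CPM in the lowest, 84.1 in the median and 101.1 in the highest vehicle library. In evexomostat replicates 002, 003, 004, 005 and 007 the levels were 66.9, 84.2, 79.1, 60.9 and 56.7 CPM, 3 of them below all vehicle libraries and 1 just above the vehicle median. The log2 fold change was -0.32 (SE 0.14, 95% interval -0.62 to -0.01, edgeR adjusted p 0.351), and -0.27 without vehicle replicate 001 (edgeR adjusted p 0.235).

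EGR1 was at 54.9 CPM in the lowest, 86.3 in the median and 111.1 in the highest vehicle library, the lowest value being that of replicate 004. Under evexomostat it was at 57.4, 64.6, 89.5, 55.7 and 73.3 CPM in replicates 002, 003, 004, 005 and 007, with 4 of 5 below the vehicle median and none below the vehicle range. The log2 fold change was -0.34 (SE 0.19, 95% interval -0.76 to 0.08, edgeR adjusted p 0.487), -0.39 without vehicle replicate 001 (edgeR adjusted p 0.233) and -0.44 without vehicle replicate 004 (edgeR adjusted p 0.347).

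MYC, whose estimate had the opposite sign to those of FOS, FOSB, JUNB and ATF3, did not pass the test either. It was at 93.6 CPM in the lowest, 120.0 in the median and 133.1 in the highest vehicle library, and at 213.8, 110.4, 153.6, 144.5 and 179.1 CPM in evexomostat replicates 002, 003, 004, 005 and 007. Of the evexomostat libraries 4 lay above every vehicle library, and replicate 003 lay inside the vehicle range. The means were 114.8 ± 16.6 CPM (SD, n = 6) and 160.3 ± 38.7 (SD, n = 5), at a log2 fold change of 0.48 (SE 0.17, 95% interval 0.12 to 0.84, edgeR adjusted p 0.224). It was 0.44 without vehicle replicate 001 (edgeR adjusted p 0.121), 0.36 without evexomostat replicate 002 (edgeR adjusted p 0.440) and 0.59 without evexomostat replicate 003 (edgeR adjusted p 0.129). With quality weights in limma-voom its adjusted p was 0.0555, the smallest that any of the 10 factors had in any alternative tried.

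**Figure D2:**
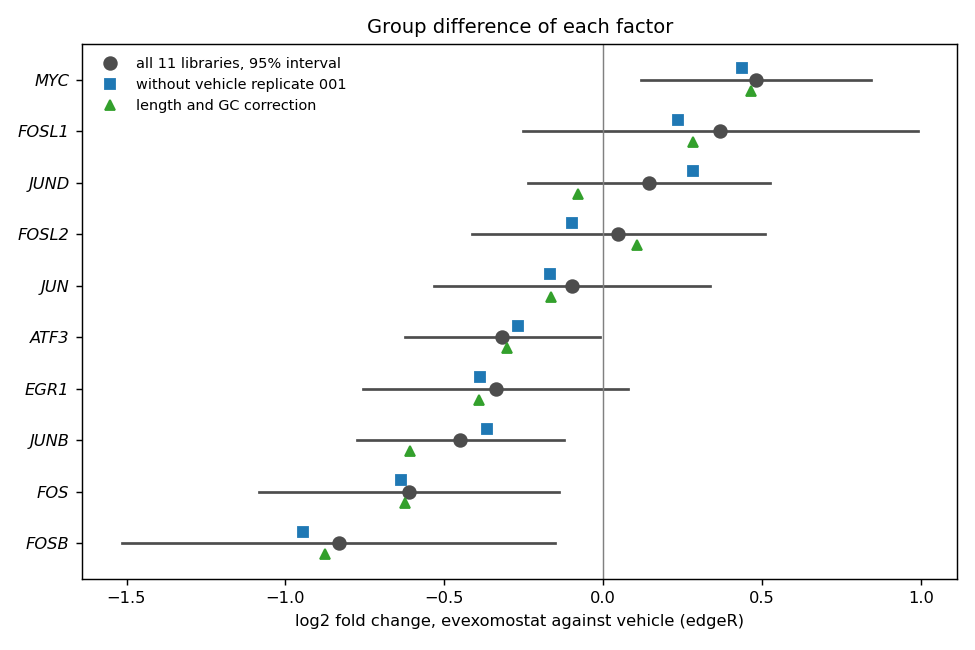
Log2 fold change of each factor (horizontal axis, evexomostat against vehicle) in edgeR with all 11 libraries (circles, with 95% intervals), without vehicle replicate 001 (squares) and after the length and GC correction (triangles). The intervals of FOSB, FOS, JUNB, ATF3 and MYC leave out 0 before adjustment over all genes, and FOSL2 and JUND change sign under 1 of the 2 alternatives.

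In the authors' deposited table none of the 10 had an adjusted p-value under 0.05, where 0.952% of 28152 symbols did. MYC had the smallest adjusted p there, 0.182 at a log2 fold change of 0.56 in the authors' deposited table, followed by FOSB at 0.4995 and FOS at 0.576. All 10 log2 fold changes in the authors' deposited table had the sign given here.

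Levels of different genes were set side by side per kilobase of transcript. JUNB was the most abundant of the 10 under vehicle, at 159.0 ± 31.2 CPM per kb (SD, n = 6), above JUN at 77.4 ± 27.1 in 6 of 6 libraries. FOSL1 (59.5 ± 24.6 CPM per kb), MYC (48.5 ± 7.02), JUND (45.3 ± 10.6), ATF3 (42.6 ± 5.96), EGR1 (27.4 ± 7.03) and FOSL2 (19.2 ± 5.24) followed. FOS itself was ninth at 8.27 ± 2.93 CPM per kb and FOSB last at 0.910 ± 0.469. The library ranges of neighbours in this order overlapped except for FOS and FOSB. Under evexomostat FOSL1 (76.9 ± 19.9 CPM per kb, SD, n = 5) stood above JUN (72.3 ± 7.05) in 3 of 5 libraries and MYC was at 67.7 ± 16.4, all with overlapping ranges, and the remaining order was the same. There the ranges of FOSL2 and FOS did not overlap either.

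**Figure D3:**
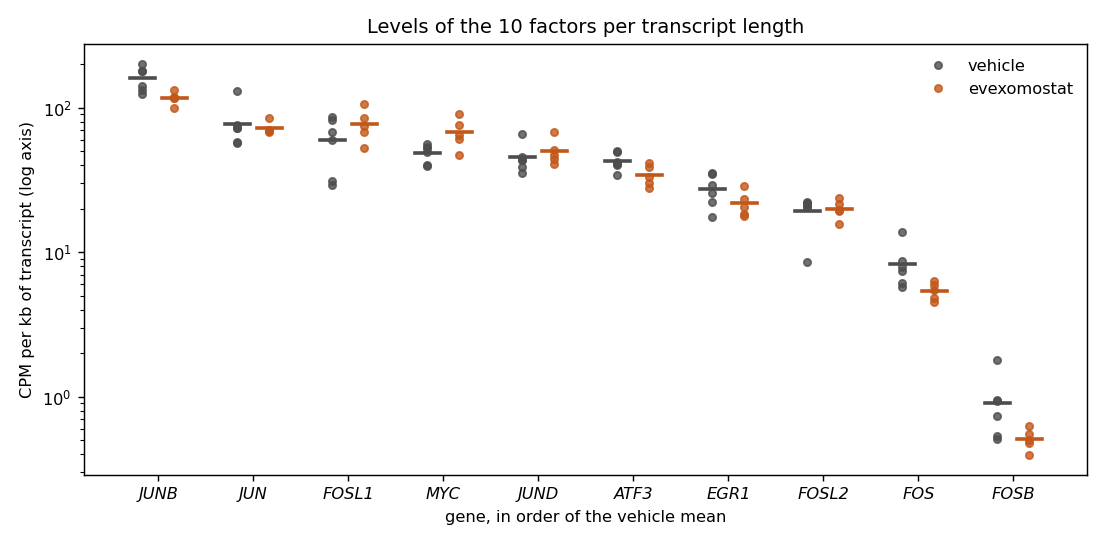
Level per kilobase of transcript (vertical log axis, CPM per kb) of the 10 factors in order of their vehicle mean. Points are the 6 vehicle and 5 evexomostat libraries and lines are group means, running from JUNB at 159.0 to FOSB at 0.910 CPM per kb under vehicle.

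Within the JUN family, JUNB made up 56.3 ± 5.47% of the summed per-length level under vehicle (SD, n = 6) and 48.8 ± 3.67% under evexomostat (SD, n = 5), and JUND 16.2 ± 3.20% and 20.8 ± 3.51%. Within the FOS family FOSL1 was the main RNA in both groups, at 66.0 ± 8.94% and 74.3 ± 3.26%, with FOSL2 at 22.6 ± 6.59% and 19.6 ± 1.33%. FOS made up 10.3 ± 4.27% under vehicle and 5.59 ± 1.93% under evexomostat, and FOSB 1.09 ± 0.505% and 0.515 ± 0.125%. These shares are descriptions of the chosen members, whose group ranges overlapped in all 7 genes.

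The highest levels of the factors fell in 6 different libraries. Vehicle replicate 007 held the highest level of FOS, JUN and ATF3, while FOSB was highest in vehicle replicate 005, EGR1 in vehicle replicate 006, JUNB in vehicle replicate 001, JUND in evexomostat replicate 003, and FOSL1, FOSL2 and MYC in evexomostat replicate 002. That same evexomostat replicate 002 had the lowest FOS and JUNB. In log2 CPM, the SD over vehicle libraries was above that over evexomostat libraries in 8 of 10 factors, MYC and ATF3 being the exceptions, and in 81.2% of all tested genes. Without vehicle replicate 001 it was so in 6 of 10 and in 63.1% of all tested genes.

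**Figure D4:**
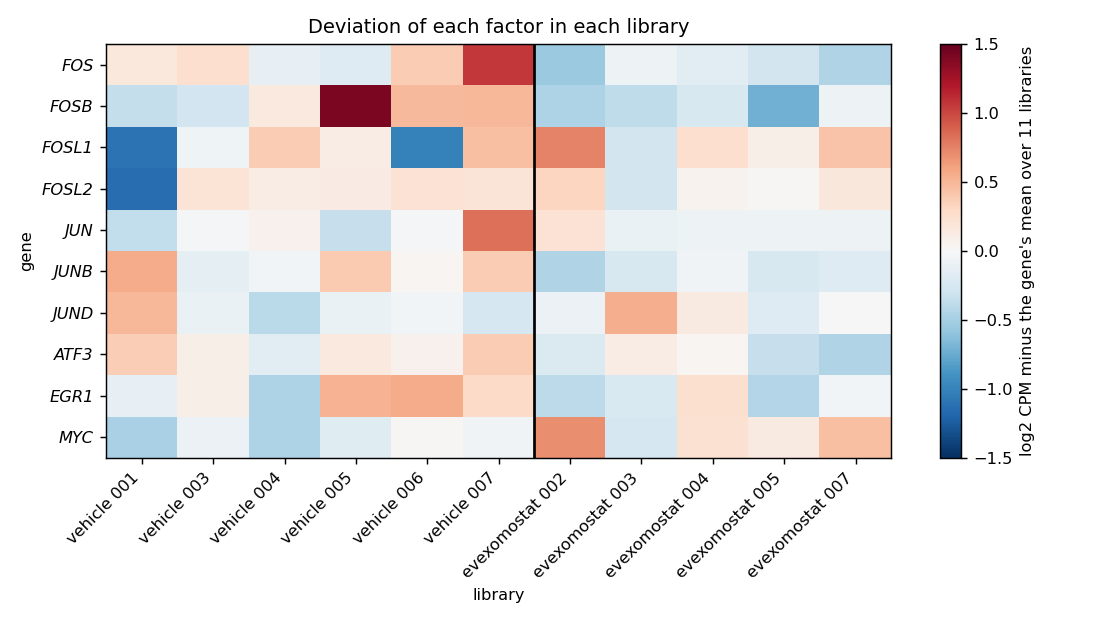
Log2 CPM of each factor (rows) in each library (columns) minus the gene's mean over the 11 libraries, red above and blue below that mean. Vehicle libraries are left of the line. FOSL1 and FOSL2 are lowest in vehicle replicate 001, FOS and JUN highest in vehicle replicate 007, and MYC highest in evexomostat replicate 002.

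Likeness was measured as the root mean square difference of log2 CPM over the 11 libraries, each gene centred on its own mean. The gene nearest to FOSB was NR4A1, an orphan nuclear receptor that is itself an immediate early gene, at 0.268 log2 units, followed by GM2A (0.298) and LCP2 (0.304). Nearest to FOS were FIGN (0.134), TET2 (0.142) and LAP3 (0.188), and nearest to JUN were AGPS (0.111), ATF2 (0.125), a bZIP partner of JUN, and APBA2 (0.141). For EGR1 they were CLDN23 (0.190), GSTM4 (0.217) and RASD1 (0.218), for MYC NIPSNAP1 (0.162), MNX1 (0.164) and UHRF1 (0.172), and for JUNB DDRGK1 (0.118), CMTM6 (0.133) and DNASE2 (0.136). ATF3 was nearest to LAMTOR3 (0.117), COQ10A (0.126) and MTERF2 (0.130), and JUND to PGLS (0.0956), ADCK5 (0.0977) and CCS (0.104). FOSL1 was nearest to SLIT2 (0.219), INSYN2B (0.227) and DBN1 (0.256), and FOSL2 to FLII (0.0983) and XPO7 (0.101). None of these neighbours was another of the 10, and the closest pair within the 10 was JUNB and ATF3, at 0.199. The points share their libraries and their depth, and no test was made.

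Around the 10 factors, 9 lists held 124 genes, of which 119 were tested and 3 passed an adjusted p-value of 0.05 in edgeR: PTGS2, RRS1 and CCND2. Each list is described by its counts and its median log2 fold change. Over all tested genes the median was -0.04, and 0.606% passed in edgeR. An unadjusted p under 0.05 was found in 13.4% of them, 4.82% higher and 8.55% lower. Among 13 tested bZIP partners of AP-1, none passed in edgeR, 10 estimates were lower and 3 higher, and the median was -0.10. The smallest p-values there were those of MAFF, a small MAF protein, at a log2 fold change of -0.43 (edgeR adjusted p 0.213), and JDP2, a JUN dimerization partner that represses AP-1, at 0.51 (edgeR adjusted p 0.266). In that list 3 genes had an unadjusted p under 0.05.

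Other immediate early genes (21 tested) had a median of -0.30, with 15 lower and 6 higher, and none passed in edgeR, while 6 had an unadjusted p under 0.05, 3 in each direction. EGR2, a paralog of EGR1, was at 19.7 ± 12.3 CPM under vehicle (SD, n = 6) and 6.25 ± 1.52 under evexomostat (SD, n = 5). Its libraries did not overlap between the groups, from 9.02 to 40.3 CPM under vehicle and from 4.97 to 8.41 under evexomostat, and its log2 fold change was -1.66 (standard error 0.38, adjusted p 0.0690 in edgeR). Without vehicle replicate 001 EGR2 passed the threshold in edgeR, with an adjusted p of 0.0174, and it also passed in DESeq2. CCN1, a secreted matrix protein, was higher by 0.95 on the log2 scale (standard error 0.28, adjusted p 0.146 in edgeR), from 57.6 ± 28.8 to 111.1 ± 14.5 CPM, and passed without vehicle replicate 006 (edgeR adjusted p 0.0364). DESeq2 called EGR2 and CCN1 of this list.

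Serum response factor, its partners and the EGR corepressors (8 tested) had a median of -0.08, none passing in edgeR and 1 with an unadjusted p under 0.05. That gene was NAB1, which binds and restrains EGR1, at 148.1 ± 42.0 CPM under vehicle and 100.2 ± 12.8 under evexomostat, a log2 fold change of -0.56 (edgeR adjusted p 0.208, and 0.0398 without vehicle replicate 001). MRTFB, a coactivator of serum response factor, followed at -0.26 (edgeR adjusted p 0.561). The list of MAP kinases that act on AP-1 (9 tested) also held kinases that MAP kinases activate. Its median was -0.12, with none passing in edgeR and 2, both of the latter kind, at an unadjusted p under 0.05. These were MAPKAPK2, the p38 substrate kinase, at -0.33 (edgeR adjusted p 0.227), and RPS6KA1, an ERK-activated kinase, at -0.49 (edgeR adjusted p 0.315, and 0.0119 without vehicle replicate 001).

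MYC's partners and antagonists (12 tested) had a median of -0.08 with none passing in edgeR and 1 at an unadjusted p under 0.05, MXD4, a repressor that competes with MYC for MAX, at a log2 fold change of 0.41 (edgeR adjusted p 0.342). MYCL, a scarce paralog at 0.898 ± 0.298 CPM under vehicle, was at 0.68 (edgeR adjusted p 0.382). MAX itself was at 48.0 ± 5.32 and 50.9 ± 1.40 CPM. Genes that control MYC and JUN protein turnover (10 tested) had a median of -0.04, with none passing in edgeR and 0 at an unadjusted p under 0.05, and 0 called by DESeq2 as well. Their smallest p-value belonged to PPP2R5A, a phosphatase subunit, at -0.21 (edgeR adjusted p 0.492). The proteins that bind AU-rich elements and set the decay of such short-lived RNAs (7 tested) had a median of 0.02 and none passing in edgeR, 1 having an unadjusted p under 0.05. ZFP36L2, which promotes decay, was at -0.37 (edgeR adjusted p 0.293) and HNRNPD at 0.20 (edgeR adjusted p 0.460).

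AP-1 target genes (19 tested) went both ways, 9 higher and 10 lower with a median of -0.17, and 8 had an unadjusted p under 0.05, 6 of them lower. Only PTGS2, the inducible cyclooxygenase, passed in edgeR and fell by 3.56 on the log2 scale (standard error 0.47, adjusted p 0.0138 in edgeR), from 58.9 ± 39.4 CPM (SD, n = 6) to 5.00 ± 1.48 (SD, n = 5), and its call was lost without evexomostat replicate 002, 005 or 007 (edgeR adjusted p up to 0.0587). MYC target genes (22 tested) had the highest median of the 9 lists, 0.13, with 18 higher and 4 lower, and 5 at an unadjusted p under 0.05, 4 of them higher. RRS1, a ribosome assembly factor, rose from 37.5 ± 4.47 to 56.0 ± 4.53 CPM without overlap, by 0.58 on the log2 scale (standard error 0.12, adjusted p 0.0465 in edgeR). CCND2, cyclin D2, rose from 2.07 ± 1.35 to 9.50 ± 4.21 CPM, by 2.21 on the log2 scale (standard error 0.45, adjusted p 0.0469 in edgeR). Both lay just inside the threshold, and each lost its call in 10 of the 11 fits without 1 library, all but that without vehicle replicate 001 (edgeR adjusted p up to 0.169 for RRS1 and 0.134 for CCND2). Over those 11 fits the log2 fold change ran from 0.52 to 0.63 for RRS1 and from 2.02 to 2.55 for CCND2. CCND2 also lost its call with upper quartile scaling and the length and GC correction, and RRS1 with no count filter. The number of list genes called was 11 without vehicle replicate 001, 6 higher and 5 lower, where 5.22% of all tested genes were called.

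**Figure D5:**
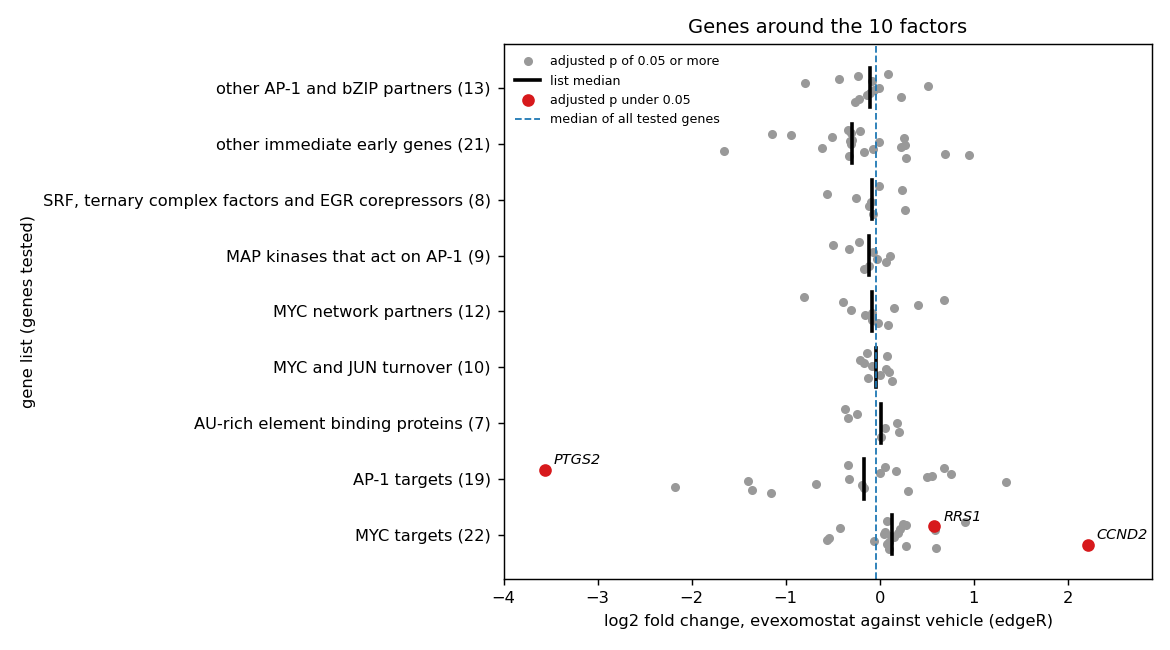
Log2 fold change (horizontal axis, evexomostat against vehicle, edgeR) of the tested genes of 9 lists, with the number tested in brackets. Each point is a gene, black bars are list medians, the dashed line is the median of all tested genes, and PTGS2, RRS1 and CCND2 are the 3 genes with an adjusted p under 0.05.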

How the data were processed

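The authors deposited whole-number read counts per gene symbol, not normalized, for 11 libraries, an RPM table of the same counts scaled to library totals, and a comparison table with log2 fold changes, p-values and adjusted p-values. Per the submitters' processing notes, STAR 2.7.5c, featureCounts and edgeR were among the tools and GRCh37 (hg19) the build. Annotation, use of strand and handling of mouse reads are not given in the sources used here, so reads of conserved mouse genes or antisense partners could be counted on a factor. Counts passing filterByExpr (minimum count 10, minimum total 15) were TMM-scaled and tested with edgeR 4.0.16 (R 4.3.3) over all tested genes, Benjamini-Hochberg adjusted at 0.05. Levels are TMM-scaled CPM. Standard errors and 95% intervals come from the F statistic. Transcript length and GC are those of the longest GENCODE release 29 transcript, coding where there is one (95.75% of tested genes matched). Their correction used splines with 5 degrees of freedom per library. DESeq2 1.42.0 and limma 3.58.1 were alternatives. The list rule named the called genes of each list or else the 2 with the smallest p, and likeness the 3 nearest genes, of which 1 gene under each rule is not reported here. The members and lists were chosen with earlier results of these data known. Tests were tested on simulated data with 16653 genes for this comparison. With 100 genes changed by 1 on the log2 scale edgeR recovered 46%, and with 100 changed by 2 it recovered 93%, with 2.8% false calls (61%, 95% and 20% in DESeq2). No pair of libraries was a duplicate (chi-square per degree of freedom at least 16.4).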

Additional observations from a re-analysis of the deposited data

Results flagged for a closer look

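In 20 groups of libraries (10 factors in 2 groups), 6 end values lay far from the others of their group relative to its range. The 10 factors share the same libraries, and the rate of such values over all tested genes is not given here, so the count is a description only. FOS was at 29.8 CPM in vehicle replicate 007, with the next vehicle library at 18.7, and JUN at 460.8 CPM in the same library, with the next at 270.1. FOSB was at 6.76 CPM in vehicle replicate 005, with the next at 3.57. FOSL2 was at 57.6 CPM in vehicle replicate 001, with the next lowest at 137.4, and JUND at 122.0 CPM in that library, with the next highest at 84.1. JUN was at 300.3 CPM in evexomostat replicate 002, with the next at 246.3. After the correction for transcript length and GC content, vehicle replicate 001 was at 89.1 CPM for FOSL2, with the next lowest vehicle library at 125.1. For JUND it was at 113.5 CPM after the correction, with the next highest vehicle library at 89.4.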

How the results depend on the processing

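None of the 10 factors passed in any of the 22 alternatives, and FOS, FOSB, JUNB, ATF3, EGR1 and MYC kept their direction in all 22. All 11 libraries being kept, the 101 called genes (29 higher, 72 lower) became 649 in DESeq2 (200 and 449) and 1059 with quality weights (384 and 675). The lower genes were 42 with upper quartile scaling and 31 and 30 (beside 43 and 38 higher) with limma-trend and RPM pseudocounts of 1 and 0.1, settings that shifted the median log2 fold change over all genes by 0.11 and 0.14. Of the list genes 3 were called, 8 in DESeq2 and 16 with quality weights. Leaving out 1 library gave 1 to 865 genes, 1 to 328 higher and 0 to 537 lower, and 0 to 11 list genes, the 865 and 11 without vehicle replicate 001. Without evexomostat replicate 005, 002 or 007 the edgeR totals were 1, 2 and 3, beside 1833, 1884 and 1649 genes at an unadjusted p under 0.05, and without vehicle replicate 003, 004 or 007 or evexomostat replicate 003 or 004 they were 28 to 56. Reversals with all 11 libraries, none past the threshold, were FOSL2 at -0.0459 with quality weights, JUN at 0.0533 and 0.0536 with the RPM pseudocounts and JUND at -0.0777 after the length and GC correction. Left-out libraries gave -0.1697 to 0.1131 for JUN and -0.0967 to 0.1245 for FOSL2. The cause was not tested.

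The groups share the numbers 003, 004, 005 and 007. Correlations of the deviations within each shared number were -0.27, 0.07, 0.05 and -0.10, and the main test used no pairing. Fitting a replicate block to these 8 libraries called 107 genes and 0 of the 10 factors, none of which had an unadjusted p under 0.05 (20.1% of tested genes did), RRS1 lost its call, and FOSL1 and FOSL2 reversed, with FOSL1 at -0.1035 and FOSL2 at -0.1749. Without the replicate block the same libraries gave 733 (225 higher, 508 lower), 11 list genes and 0 of the 10, with FOSL1 at -0.0967 and FOSL2 at -0.1662. In that edgeR fit 4 of the 10 (FOSB, JUNB, JUND and MYC) had an unadjusted p under 0.05, beside 24.5% of tested genes. In simulated data edgeR recovered 46% of genes changed by 1 on the log2 scale, and all 10 estimates here were smaller than that. The simulated changed genes were picked at random and no simulated library was set apart from the others, so this rate need not hold for the 10 factors.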

Other observations

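The genes of this paragraph were chosen after their values were seen. Among paralogs of EGR1, the vehicle mean of EGR3 was 2.69 ± 1.25 CPM (SD, n = 6) and its evexomostat mean 2.57 ± 0.421 (SD, n = 5), with EGR4 at 0.780 ± 0.396 and 0.512 ± 0.242. The NR4A nuclear receptors, induced by many of the same signals, were at 19.3 ± 8.92 and 13.6 ± 1.85 CPM for NR4A1, 9.01 ± 5.596 and 4.67 ± 0.583 for NR4A2 and 13.3 ± 10.7 and 5.99 ± 0.924 for NR4A3. Their log2 fold changes were -0.51, -0.95 and -1.15, and none passed in edgeR (adjusted p 0.462, 0.250 and 0.213). The cytokine genes IL6 and CXCL8 of the AP-1 target list also had low p-values without passing in edgeR, at -1.40 (edgeR adjusted p 0.0811) and -1.36 (edgeR adjusted p 0.124), and DESeq2 called both. CCN2, which encodes a matrix protein related to CCN1, was at 15.05 ± 5.77 and 24.3 ± 8.27 CPM (log2 fold change 0.69, edgeR adjusted p 0.325). BOP1, a ribosome assembly factor among the MYC targets, was at 130.9 ± 26.5 and 198.5 ± 26.5 CPM (log2 fold change 0.60, edgeR adjusted p 0.0953), and LDHA of the same list at -0.54 (edgeR adjusted p 0.258).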
